A study of Oryza sativa with 58 samples.

Results

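The 10 DREB genes of rice described here comprised 8 DREB1 genes (DREB1A to DREB1H) and 2 DREB2 genes (DREB2A and DREB2B), out of 55986 genes listed. They were chosen by their LOC_Os identifiers as members of a gene family. The rule uses no measured value, but earlier results of these data were known when the genes were chosen. Their levels were read from RNA-Seq of young leaf in 34 libraries of 17 rice (Oryza sativa) varieties, with 2 libraries per variety. The varieties were HKG 98, Garia, Y134, IR72, Yong Chal Byo, TAINO 38, Ginga, LABELLE, Latisai1, Gasym Hany, BASMATI 385, Aijiaonante, Xibaizhan, WH139, Nanjing11, 9311 and PeiC122. All seedlings were 2 weeks old, grown in hydroponic culture in a phytotron with 14 h of light at 32 °C and 10 h of dark at 28 °C. The labels name no cold or drought treatment for any of them, and whether any seedlings were under stress was not tested. The labels do not say whether the libraries of a variety came from separate plants or cultures, and p-values then measure the spread between these libraries, which may be technical.

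DREB proteins are transcription factors of the AP2/ERF family that bind the dehydration-responsive element, also called the C-repeat, in the promoters of stress genes. In Arabidopsis, DREB1 genes (also called CBF) are induced within hours by cold, and their products switch on genes that protect the cell against freezing. DREB2 genes are induced mainly by drought, salt and heat. In Arabidopsis and rice several DREB1 genes lie side by side in the genome, and raising the level of a single one in transgenic plants is known to increase tolerance of cold, drought or salt and often to slow growth.

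In the rice genome, DREB1B (LOC_Os09g35010), DREB1H (LOC_Os09g35020) and DREB1A (LOC_Os09g35030) lie next to each other on chromosome 9, in this order. DREB1C (LOC_Os06g03670) and DREB1D (LOC_Os06g06970) are on chromosome 6, DREB1G (LOC_Os02g45450) on chromosome 2 and DREB1E (LOC_Os04g48350) on chromosome 4. DREB1F (LOC_Os01g73770) and DREB2A (LOC_Os01g07120) are on chromosome 1, and DREB2B (LOC_Os05g27930) is on chromosome 5. A search of RefSeq synonyms by gene symbol, not by LOC_Os identifier, found 9 of the 10 genes, DREB1D being the other one. Members of such a family can share reads, and how the counting divided them was not tested.

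The values are FPKM, fragment numbers scaled for transcript length and library size, which can be compared between genes. FPKM summed to between 609065 and 1442721 per library, and 18170 to 20083 genes were above 1 FPKM. The number of reads behind a value is unknown. The most frequent ratio between low values put the deepest library at 1.02 and the shallowest at 0.425 of a common reference library. Across genes, the libraries of a variety correlated at r = 0.951 to 0.995. The lowest value was that of PeiC122, whose replicate 1 had the fewest genes above 1 FPKM, and the main ranges and calls that rest on it are also given without it. Photosynthesis genes that mark leaf summed to 15993 to 30936 FPKM over 5 genes in every library. Of 3 root genes, 2 were listed at 0 in all 34 libraries, and the 3 root genes summed to at most 6.38 FPKM. The 3 panicle genes summed to at most 2.59 FPKM.

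The library titles begin with a code letter, W for 11 varieties (22 libraries) and C for 6 varieties (Aijiaonante, Xibaizhan, WH139, Nanjing11, 9311 and PeiC122, 12 libraries). The labels do not say what the letters stand for. Each variety has 1 letter, so a letter and its varieties cannot be told apart. The split was noticed after the values were seen, and it is described here without a test. In relative depth, W libraries had a median of 0.712 and C libraries a median of 0.687. The study places Aijiaonante, Xibaizhan, WH139, Nanjing11 and 9311 (all coded C) and Y134 and IR72 (both coded W) in the Xian/Indica subpopulation. The other varieties comprise HKG 98 and Garia in Aus, Gasym Hany and BASMATI 385 in the aromatic group, Latisai1 in Geng/Japonica, and the remaining varieties in an intermediate group. Of that group, the study found PeiC122 (coded C) and Yong Chal Byo (coded W) nearer to Xian/Indica, so the C varieties all belong to or lie near that subpopulation.

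Baseline levels ran between genes that were expressed in every library and genes that were barely detected, with several DREB1 genes high in some varieties and low in others. DREB2A and DREB2B were above 1 FPKM in all 34 libraries, with medians of 9.77 and 17.9 FPKM over the libraries. Among the DREB1 genes, DREB1C averaged above 1 FPKM in all 17 varieties, DREB1B in 15, DREB1A and DREB1G in 12 each and DREB1E in 9. DREB1H and DREB1F each averaged above 1 FPKM in only 1 variety, and DREB1D in 0. The highest single value of the family was that of DREB1B in a Y134 library, 54.2 FPKM.

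**Figure D1:**
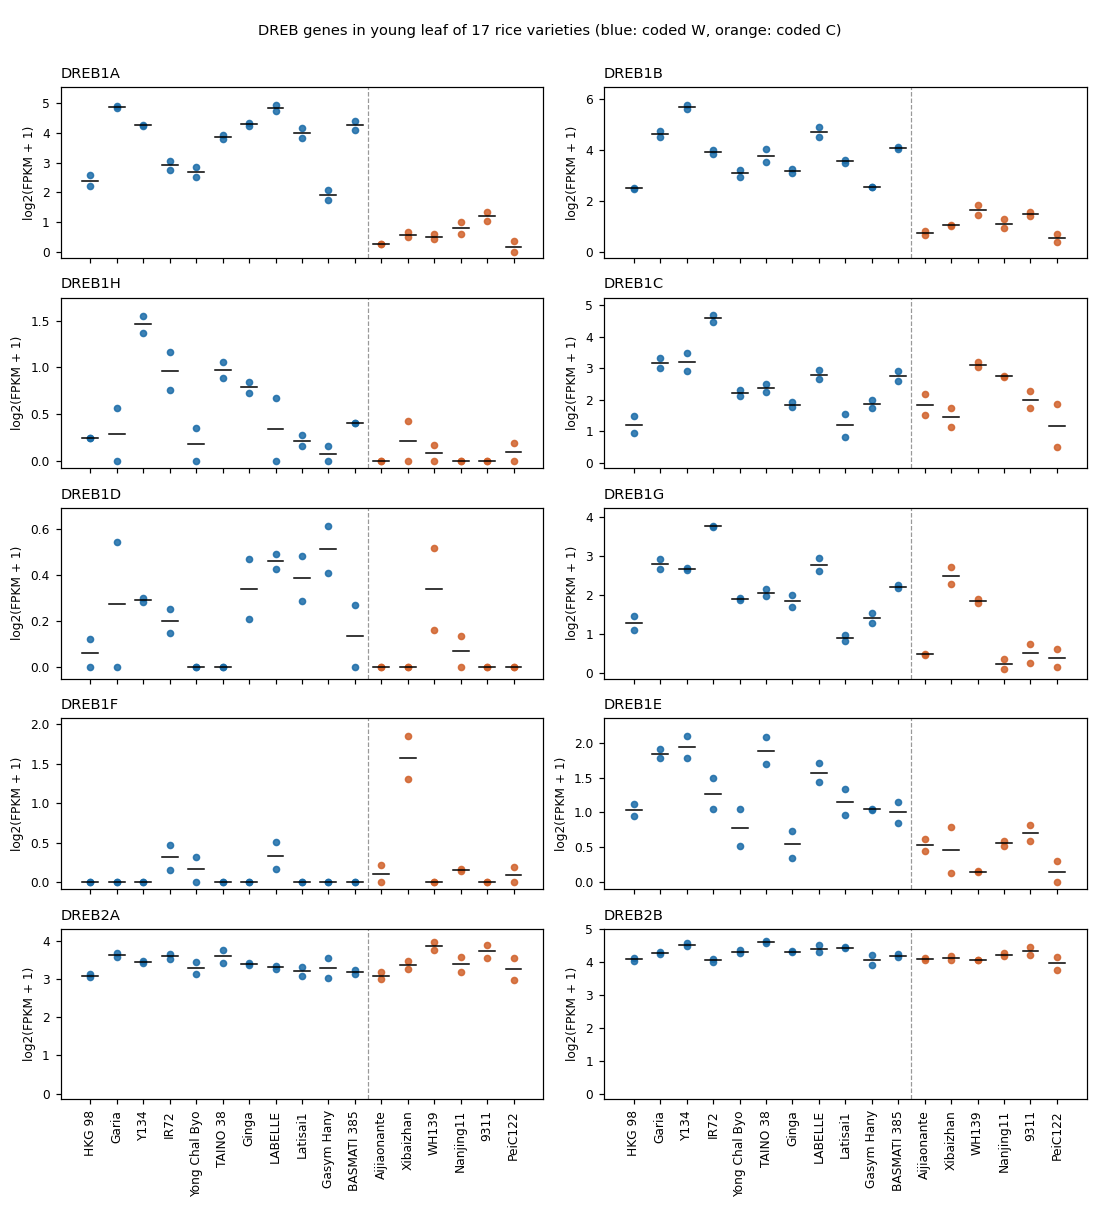
FPKM of each DREB gene in the 34 young leaf libraries, on a log2(FPKM + 1) axis with a scale of its own for each gene. Points are libraries, the bar is the mean of the 2 libraries of a variety, and the dashed line separates the 11 varieties coded W (blue, left) from the 6 coded C (orange, right). DREB1A and DREB1B are the panels in which no orange variety reaches a blue one, whereas DREB2A and DREB2B stay within a narrow band.

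Differences among the 17 varieties were tested with limma's moderated F test on log2(FPKM + 1), over all genes that averaged more than 1 FPKM in 1 variety or more. A gene was called at an adjusted p below 0.01 and more than 1.5-fold between the highest and the lowest variety. Of all 24568 genes tested, 68.8% were called. Of the 10 DREB genes, 9 passed the filter and 8 were called, a share that can be read only against that high background, and DREB1H and DREB1F passed the filter through 1 variety alone. Ranges are therefore given beside those of all genes. The median range between the highest and the lowest variety mean was 1.78 on the log2 scale for the 9 DREB genes and 1.24 for all genes tested, and 4 of the 9 (DREB1A, DREB1B, DREB1C and DREB1G) had a range above 2, against 22% of all genes. The spread between the libraries of a variety had a median residual SD of 0.192 for the DREB genes and 0.179 for all genes.

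DREB1A, a cold-induced activator, had the clearest pattern. In the W varieties its 2 libraries gave 27.2 and 28.9 FPKM in Garia, 25.3 and 29.1 in LABELLE, 19.2 and 17.5 in Ginga, 17.9 and 18.2 in Y134, 20.1 and 15.9 in BASMATI 385, and 16.9 and 12.98 in Latisai1. The other W varieties were lower, with 12.9 and 14.2 FPKM in TAINO 38, 7.35 and 5.80 in IR72, 4.71 and 6.19 in Yong Chal Byo, 3.60 and 4.93 in HKG 98 and 2.36 and 3.26 in Gasym Hany. In the C varieties it had 1.07 and 1.57 FPKM in 9311, 1.04 and 0.522 in Nanjing11, 0.609 and 0.409 in Xibaizhan, 0.521 and 0.348 in WH139, 0.204 and 0.225 in Aijiaonante, and 0 and 0.290 in PeiC122. Every W library was therefore above every C library, the lowest W library at 2.36 FPKM and the highest C library at 1.57 FPKM. In whole leaves, fewer cells that express a gene and less RNA per cell cannot be told apart. The range between variety means was 4.67 on the log2 scale (limma, adjusted p = 1.18e-15), larger than that of 97.7% of the genes tested, and 4.58 without PeiC122 replicate 1. From Garia down to PeiC122, 10 of the 16 steps between neighbouring varieties were within the spread of their libraries. Among the steps that were not, the lowest LABELLE library was above the highest Ginga library, the lowest TAINO 38 library above the highest IR72 library, and the lowest Gasym Hany library above the highest 9311 library.

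DREB1B, the tandem neighbour and likewise cold-induced, showed the same division with a different leader. Y134 was highest, with 54.2 and 48.4 FPKM. The other W varieties had 22.3 and 28.99 FPKM in LABELLE, 21.9 and 26.5 in Garia, 16.6 and 15.7 in BASMATI 385, 15.3 and 13.6 in IR72, 15.6 and 10.7 in TAINO 38, 10.4 and 11.4 in Latisai1, 8.63 and 7.74 in Ginga, 6.87 and 8.34 in Yong Chal Byo, 4.94 and 4.95 in Gasym Hany, and 4.65 and 4.74 in HKG 98. The C varieties had 2.61 and 1.80 FPKM in WH139, 1.70 and 2.03 in 9311, 0.956 and 1.46 in Nanjing11, 1.13 and 1.06 in Xibaizhan, 0.793 and 0.592 in Aijiaonante and 0.345 and 0.640 in PeiC122. Again no W library overlapped a C library. The range was 5.14 (limma, adjusted p = 1.19e-15) and 4.99 without PeiC122 replicate 1, and 7 of the 16 neighbouring steps were within library spread. By variety mean per length, DREB1B was higher than DREB1A in 11 varieties and lower in 6. In LABELLE, BASMATI 385, TAINO 38, HKG 98 and Nanjing11 the libraries of DREB1A and DREB1B overlapped. The ratio of the variety means, DREB1B over DREB1A, ran between 0.446 in Ginga and 5.08 in WH139, and Y134 had 2.84. The WH139 ratio rests on a low DREB1A mean of 0.435 FPKM.

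DREB1H, the gene between them on chromosome 9, was near the lowest measurable level. It was listed at 0 in 13 of 34 libraries. In 25 libraries, those at 0 included, its value scaled by relative depth rounded to at most 3 steps. A step is the gene's smallest such value above 0, and these 25 values lay within 0.3 steps of a whole number. Y134 was again highest, with 1.59 and 1.94 FPKM, followed by IR72 with 1.25 and 0.691 and TAINO 38 with 0.844 and 1.08 FPKM. The lowest Y134 library was above both IR72 libraries, while IR72 and TAINO 38 overlapped. Of the 12 C libraries, 9 were at 0, and the highest had 0.344 FPKM. Its range was 1.46, and since it entered the test through Y134 alone, its call lends no support to the high level there. LOC_Os09g35000, the identifier just before the 3 genes, averaged between 1.75 and 3.13 FPKM in every variety, a narrower span than those of DREB1A or DREB1B.

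DREB1C stood out in IR72. The 2 IR72 libraries had 21.2 and 24.7 FPKM, against 10.1 and 6.58 FPKM in Y134, the next highest variety by mean. Garia had 9.03 and 7.03 FPKM and WH139 had 8.05 and 7.17 FPKM, and these ranges overlapped that of Y134. At the low end were HKG 98 with 0.925 and 1.78 FPKM, Latisai1 with 1.93 and 0.768 FPKM, and PeiC122, whose libraries differed most, with 0.420 and 2.60 FPKM. The range over varieties was 3.40 (limma, adjusted p = 1.03e-06), 3.39 without PeiC122 replicate 1 and 4.07 without PeiC122 replicate 2. W and C varieties overlapped, with variety means between 1.35 and 22.9 FPKM in W varieties and between 1.51 and 7.61 FPKM in C varieties.

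DREB1G was also highest in IR72, with 12.5 and 12.8 FPKM, and its libraries were well above those of Garia, with 6.68 and 5.34 FPKM. LABELLE had 6.76 and 5.14 FPKM, Y134 had 5.52 and 5.29 FPKM, and Xibaizhan, a C variety, had 5.61 and 3.87 FPKM. The lowest values were 0.270 and 0.0792 FPKM in Nanjing11, 0.118 and 0.525 in PeiC122, 0.372 and 0.406 in Aijiaonante and 0.675 and 0.195 in 9311. They are near the floor. In steps, defined as for DREB1H, they were 4.0 and 1 in Nanjing11 and 1.0 and 6.2 in PeiC122. Aijiaonante had 4.0 and 4.1 steps and 9311 had 7.3 and 3.0. These 4 C varieties lay below all 11 W varieties, but Xibaizhan and WH139 did not. The range was 3.54 (limma, adjusted p = 1.19e-11).

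DREB1E was low everywhere and followed DREB1A and DREB1B in outline. Its highest variety means were those of Y134 (2.42 and 3.25 FPKM), TAINO 38 (2.22 and 3.24 FPKM) and Garia (2.75 and 2.44 FPKM), whose libraries overlapped. It was lowest in WH139, with 0.124 and 0.102 FPKM, and in PeiC122, with 0 and 0.230 FPKM. These low values were 1.0 and 1 steps in WH139 and 0 and 2.1 steps in PeiC122, with steps defined as for DREB1H. Of the 11 W varieties, 10 had means above every C variety, the exception being Ginga with 0.671 and 0.276 FPKM. The range was 1.78 (limma, adjusted p = 1.70e-06), but 15 of its 16 neighbouring steps were within library spread.

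DREB1F, known in rice as a gene induced by salt, drought and abscisic acid, was high in a single variety. Xibaizhan had 2.59 and 1.47 FPKM, which were 16 and 13 steps, defined as for DREB1H. In the other 16 varieties the highest value was 0.420 FPKM, in LABELLE, and 23 of 34 libraries were listed at 0. The range was 1.58, and outside Xibaizhan no variety mean was above 0.269 FPKM. DREB1F entered the test through Xibaizhan alone, so its calls lend no support to the high level there. DREB1D did not pass the filter and was not tested. It was listed at 0 in 16 libraries, had at most 0.530 FPKM (in Gasym Hany), and none of its 34 values was above 3.21 steps.

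The DREB2 genes differed little. DREB2B, whose protein acts in drought and heat responses, ranged between 23.18 and 24.01 FPKM in TAINO 38, the highest variety, and between 12.6 and 16.9 FPKM in PeiC122, the lowest. Its range was 0.65 on the log2 scale (limma, adjusted p = 0.000836), a fold of 1.60 between the highest and lowest means. Without PeiC122 replicate 1 the range was 0.57 and DREB2B was not called. DREB2A was highest in WH139, with 14.9 and 12.6 FPKM, and lowest in HKG 98, with 7.36 and 7.77 FPKM, next to Aijiaonante with 8.08 and 7.07 FPKM. It was not called (range 0.78, limma, adjusted p = 0.0278), but was called without PeiC122 replicate 1 (range 0.91, adjusted p = 0.00502) or replicate 2 (range 0.78, adjusted p = 0.00785). The PeiC122 libraries themselves gave 10.8 and 6.82 FPKM for this gene.

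To see which varieties stood apart, each variety was compared with the mean of the other 16 in the same limma fit, at an adjusted p below 0.05 over all genes and varieties and a log2 difference above 1.5. Of 153 pairs of a DREB gene and a variety, 11 were called higher and 10 lower, against 1.60% called higher and 1.20% called lower over all pairs of a gene and a variety. At least 1 variety stood apart for 5 of the 9 genes tested, and for 17.3% of all genes. The 5 genes and the 11 higher pairs include DREB1F in Xibaizhan, through which alone that gene entered the test. The pairs of 1 gene are not independent, and DREB1A and DREB1B hold 17 of the 21.

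DREB1A was higher in Garia by 2.43 on the log2 scale, in LABELLE by 2.38, in Ginga by 1.80, in Y134 by 1.78 and in BASMATI 385 by 1.77. It was lower in PeiC122 (log2 difference -2.54), Aijiaonante (-2.44), WH139 (-2.19), Xibaizhan (-2.11) and Nanjing11 (-1.87). DREB1B was higher in Y134 by 3.03, in LABELLE by 1.98 and in Garia by 1.90, and lower in PeiC122 (-2.43), Aijiaonante (-2.23), Xibaizhan (-1.91) and Nanjing11 (-1.83). All 9 lower pairs of these genes were in C varieties and all 8 higher pairs in W varieties. The remaining calls were DREB1C and DREB1G in IR72, higher by 2.40 and 2.15, DREB1F in Xibaizhan, higher by 1.50, and DREB1G in Nanjing11, with a difference of -1.61.

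Some of these calls were close to the limit of 1.5. DREB1F in Xibaizhan was lost without Xibaizhan replicate 1 (1.23), and its difference was 1.49 to 1.50 and lost without replicate 1 of Aijiaonante, IR72, PeiC122, Yong Chal Byo or LABELLE. DREB1G in Nanjing11 was lost (-1.49) without Nanjing11 replicate 2, in which its value was 1 step. With any 1 of the 34 libraries left out, the calls of DREB1A and DREB1B were kept. In PeiC122 the difference was then between -2.72 and -2.36 for DREB1A and between -2.57 and -2.29 for DREB1B.

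**Figure D2:**
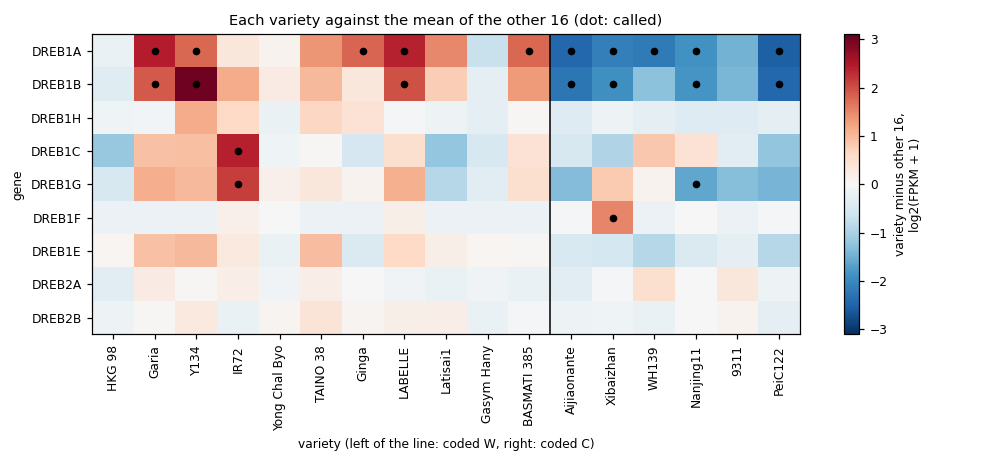
Difference of each variety from the mean of the other 16 on the log2(FPKM + 1) scale, for the 9 DREB genes tested (rows) and the 17 varieties (columns, those coded W left of the line and those coded C right of it). Red is higher and blue lower in the variety, and a dot marks the 21 called pairs, 17 of which are in the rows of DREB1A and DREB1B.

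By code letter, variety means of DREB1A were between 2.81 and 28.0 FPKM in W varieties (median 14.9) and between 0.145 and 1.32 FPKM in C varieties (median 0.472). Those of DREB1B were between 4.70 and 51.3 FPKM in W varieties (median 13.1) and between 0.492 and 2.21 FPKM in C varieties (median 1.15). Such a complete separation, with all W varieties above all C varieties, was seen in 0.171% of the genes tested, which is 42 genes, and the reverse in 0.436%. The difference of mean log2 values, W minus C, was 3.05 for DREB1A and 2.69 for DREB1B, which ranked 15 and 29 among 24568 genes ordered from the most positive difference. It was 1.16 for DREB1G, 0.85 for DREB1E, 0.47 for DREB1H, 0.42 for DREB1C, 0.17 for DREB2B, -0.08 for DREB2A and -0.25 for DREB1F, beside a median of 0.03 over all genes. The summed level of the 5 leaf genes overlapped between the letters (17122 to 30936 FPKM in W libraries and 15993 to 28805 FPKM in C libraries), and so did that of the 3 panicle genes (0.0826 to 2.59 FPKM in W libraries and 0.313 to 0.935 FPKM in C libraries). The 3 root genes summed to 0 to 6.38 FPKM in W libraries and 0 to 0.167 FPKM in C libraries, and 2 of these 3 genes were at 0 in every library. The part of any of these in the DREB levels was not tested.

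The code letter and the subpopulation overlap in part, and neither was tested. Y134 and IR72, which are Xian/Indica varieties coded W, had 18.04 ± 0.257 and 6.58 ± 1.10 FPKM of DREB1A (SD, n = 2 each), and the 5 Xian/Indica varieties coded C had means between 0.214 and 1.32 FPKM. For DREB1B, Y134 had 51.3 ± 4.07 and IR72 14.5 ± 1.19 FPKM, and the 5 others had means between 0.693 and 2.21 FPKM. The libraries of these W and C varieties did not overlap in either gene. By mean, PeiC122 was lowest of all 17 in both genes, but its libraries overlapped those of Aijiaonante in both. For DREB1A the lowest rank rests on PeiC122 replicate 1 at 0 FPKM. Replicate 2, at 0.290 FPKM, was above both Aijiaonante libraries (0.204 and 0.225 FPKM).

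Within each letter, part of the differences between varieties was still called. Among the 11 W varieties alone, 6 of 8 DREB genes tested were called, beside 62.8% of genes. DREB1A had a range of 2.94 (limma, adjusted p = 7.99e-09) and a 9.96-fold span between Garia and Gasym Hany. DREB1B had a range of 3.20 (limma, adjusted p = 3.87e-09). DREB1C, DREB1G, DREB1H and DREB1E were also called. DREB1H entered through Y134 alone, so its call lends no support to the high level there. Among the 6 C varieties alone, 2 of 7 tested were called, DREB1G (range 2.28, limma, adjusted p = 0.000498) and DREB1F, which entered through Xibaizhan alone, beside 18% of genes. DREB1A had a range of 1.02 there (adjusted p = 0.0302) and DREB1B one of 1.10 (adjusted p = 0.0127). Whether the ranges differ between letters was not tested, and the C varieties are fewer.

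The DREB genes varied together in part. Over the 17 variety means on the log2 scale, DREB1A and DREB1B had r = 0.935 (Spearman's rho 0.922), and within the letters r was 0.748 over 11 W varieties and 0.689 over 6 C varieties. The pooled value therefore holds the gap between the letters as well as the variation within each. DREB1C and DREB1G, on different chromosomes, had r = 0.67 over the 17 varieties but 0.973 over the W varieties and 0.031 over the C varieties, where Xibaizhan had much DREB1G and little DREB1C and Nanjing11 the opposite. DREB1E had r = 0.866 with DREB1B and 0.794 with DREB1A. Of 36 pairs of the 9 genes, 17 had r above 0.5 and 8 had r below 0, and DREB1F was in 7 of these 8. The r values of DREB1F rest mainly on Xibaizhan, its only high variety. The share of such pairs over all genes was not computed. All points share the same libraries, and these values are descriptions.

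**Figure D3:**
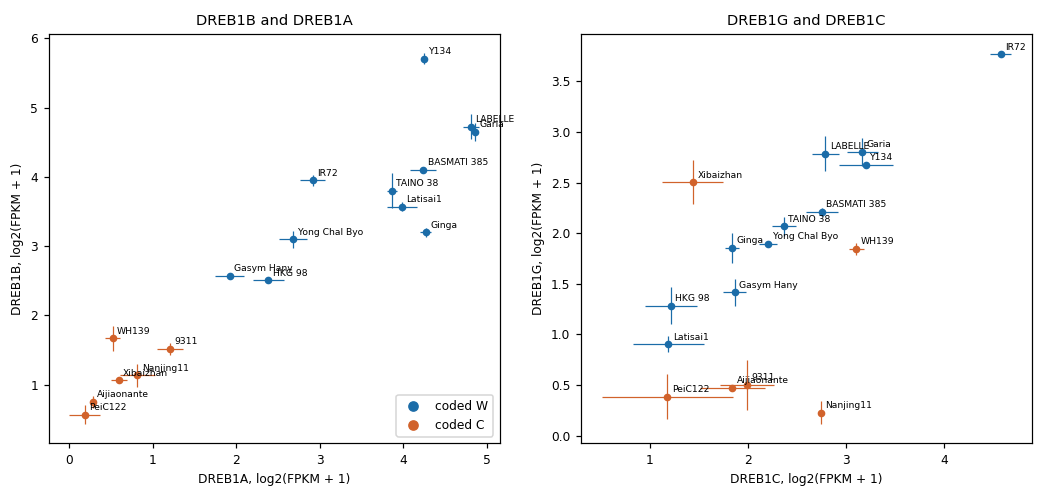
Variety means of DREB1B against DREB1A (left panel) and of DREB1G against DREB1C (right panel), on log2(FPKM + 1) axes, with varieties coded W in blue and C in orange. Bars end at the 2 libraries of each variety. In the left panel the letters form separate clouds, and in the right panel the 11 W varieties lie along a line (r = 0.973) from which the C varieties scatter.

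The genes whose levels over the 17 varieties were most like those of each called DREB gene were taken as the 3 with the highest r. For DREB1A they were DREB1B (0.935), LOC_Os02g53750 (0.919) and LOC_Os06g39370 (0.915). For DREB1B they were LOC_Os02g43790 (0.942), LOC_Os01g28790 (0.939) and DREB1A (0.935). DREB1B and DREB1A were thus among the 3 most similar genes of each other, out of all genes tested. These values hold the gap between the letters. Within the W varieties DREB1A had r = 0.748 with DREB1B, 0.749 with LOC_Os02g53750 and 0.703 with LOC_Os06g39370. There DREB1B had 0.927 with LOC_Os02g43790 and 0.878 with LOC_Os01g28790. DREB1G was most like LOC_Os01g64360 (0.924), LOC_Os03g53020 (0.906) and LOC_Os02g08440 (0.872). DREB1C was most like LOC_Os01g07130 (0.857), whose identifier follows that of DREB2A on chromosome 1, then LOC_Os05g39720 (0.827) and LOC_Os03g55450 (0.797). No other DREB gene was among these for DREB1C or DREB1G. The values were 0.876 to 0.816 for DREB1H, led by LOC_Os02g47960, 0.910 to 0.887 for DREB1E, led by LOC_Os02g04130, and 0.838 to 0.800 for DREB2B, led by LOC_Os03g18870. For DREB1F the 3 genes all had 0.957, with Xibaizhan as the one high point of DREB1F.

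Other genes of the pathway were taken from 3 lists. Of 9 regulators that act upstream of DREB1 genes, 7 were called among the varieties, where 68.8% of all genes were (median range 0.99 for the 9), and of 5 other cold and drought regulators, 5 were called (median 2.03). Of 16 response genes that lie downstream of DREB or related factors, 15 were tested and 14 called, with a median range of 3.12, beside 1.24 over all genes. Of 255 pairs of such a gene and a variety, 22 were called higher and 19 lower, where 1.60% and 1.20% of all pairs were called. None of the listed genes separated all W from all C varieties in either direction.

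The response genes had no common direction with DREB1A. Over the 17 varieties their r with DREB1A had a median of -0.001, with 7 of 15 above 0, beside a median of 0.053 over all genes. LOC_Os03g20120 (0.806; range 4.34, limma, adjusted p = 7.27e-10), LOC_Os10g40550 (0.771), LOC_Os02g44230 (0.603) and LOC_Os07g48830 (0.567) were those above 0.5. Within the W varieties these values were 0.451, 0.610, 0.503 and 0.1. The 4 genes with neighbouring identifiers on chromosome 11, LOC_Os11g26750, LOC_Os11g26760, LOC_Os11g26780 and LOC_Os11g26790, had r between -0.408 and -0.217 with DREB1A over the 17 varieties. Within the W varieties r was -0.198, -0.021, 0.24 and 0.23 for these 4 genes, in the same order, so the pooled values hold the gap between the letters. The ranges of these 4 genes were 3.26, 3.83, 4.15 and 5.33. Their mean levels were lower in W varieties than in C varieties, by differences between -1.26 and -0.90. The W minus C differences of the 4 genes with r above 0.5 were of the other sign, 1.87 for LOC_Os03g20120 and 0.81 to 0.88 for the others, and the median over the 15 response genes was 0.22. Of the upstream regulators, LOC_Os03g17700 had the highest r with DREB1A over the 17 varieties (0.597, and 0.379 within the W varieties). Within the W varieties the highest was LOC_Os01g62410 (0.599, and 0.416 over the 17 varieties).

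**Figure D4:**
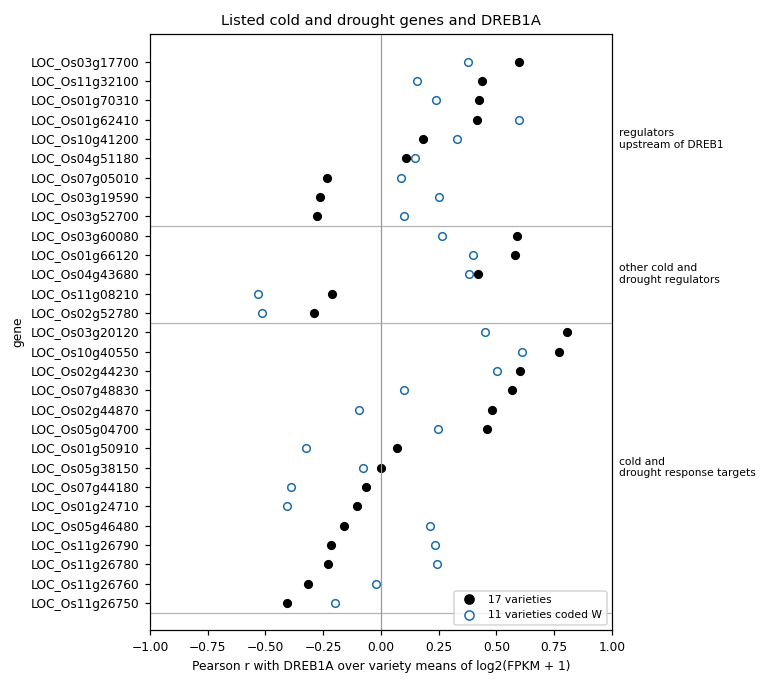
Pearson r of each listed cold and drought gene with DREB1A over variety means of log2(FPKM + 1), for the 17 varieties (filled) and for the 11 varieties coded W (open), grouped by list. The response targets spread on both sides of 0, and LOC_Os03g20120 and LOC_Os10g40550 lie farthest right.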

How the data were processed

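RNA-Seq was deposited for 58 libraries. The 34 young leaf libraries of 17 varieties with LOC_Os identifiers were used, and 24 libraries with other identifiers were not used here. Per the methods and processing notes, the authors trimmed reads with Trimmomatic (0.36), mapped them with TopHat2 (2.1.0) and deposited FPKM values from Cufflinks (2.2.1 in the methods, 2.2.5 in the processing notes). The RNA-Seq methods name the MH63 or ZS97 genome, whereas these files carry LOC_Os identifiers. For the histone mark libraries compared among varieties, the study names the Nipponbare (MSU) genome instead. Reads of a variety that differ from the annotated genome may be lost, which was not tested.

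Values were tested as log2(FPKM + 1), so fold changes of low genes are understated, with limma (3.58.1, R 4.3.3; lmFit, eBayes with a trend, two-sided). Genes averaging more than 1 FPKM in 1 variety or more entered, and p-values were adjusted by Benjamini-Hochberg over all of them (over all genes and 17 contrasts for single varieties). Relative depth was the most frequent ratio of the reference library to a library, over genes at 0.001 to 0.3 FPKM in both. Since FPKM values carry no counts, no counting interval is given, and an exact 0 can be a failed estimate. No 2 libraries held identical values. The genes named are the 10 DREB genes, listed genes that were called, and the 3 most similar genes per called DREB gene. LOC_Os09g35000 was added to these after its values were seen, as the identifier before the chromosome 9 genes. The DREB genes and lists were chosen with earlier results of these data known. On simulated data with 200 genes changed by 2 on the log2 scale among 21648, the F test called 85% and 2 unchanged genes. There 1 variety against 16 called 97.5% and 4 unchanged genes. The changed genes were drawn from those averaging above 1 on the log2(FPKM + 1) scale, and the noise was normal. These rates therefore do not cover low genes with stepwise values, such as DREB1H and DREB1F. Figures were drawn with matplotlib (3.10.9). Alternatives were a pseudocount of 0.1, no filter, quantile normalization, a replicate block and leaving out each library, and, chosen after seeing the data, fits within W or C varieties.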

Additional observations from a re-analysis of the deposited data

How the results depend on the processing

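With a pseudocount of 0.1, 33503 pairs of a gene and a variety were called over all genes (11710 with a pseudocount of 1), and 43 pairs of a DREB gene and a variety (21 with 1). The 43 included 8 for DREB1G and 5 for DREB1E, for which 2 and 0 were called with a pseudocount of 1. Within the 6 C varieties, 4020 genes and 2 DREB genes were called among varieties (16896 and 8 over the 17 varieties), with fewer libraries and genes tested. Under quantile normalization DREB2B (range 0.55) and DREB1F in Xibaizhan (1.46) were not called. Leaving out 1 library at a time gave 16114 to 20324 genes, 8 to 9 DREB genes and 20 to 24 DREB pairs called. Same-numbered libraries did not deviate together: 8 of 136 pairs of varieties correlated above 0.1 (-0.223 to 0.241). With the replicate number as a block, 16686 genes and 11703 pairs were called, and no DREB call changed. No direction reversed under any alternative run. Depth limits DREB1D, DREB1F and DREB1H most, whose values are mostly at or within a few steps of 0.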
